A study of Mus musculus with 6 samples.

Results

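The genes described here were the Toll-like receptor (TLR) genes Tlr1, Tlr2, Tlr3, Tlr4, Tlr6, Tlr7, Tlr8, Tlr9, and Tlr13 and the coreceptor gene Cd14. They were chosen by symbol, and all 10 were found among the 46078 gene identifiers of each count table. All 10 also passed the filter on low counts, which left 15554 genes for testing. TLRs are sensors of the innate immune system. TLR1, TLR2, TLR4, and TLR6 sit in the plasma membrane, where TLR2 pairs with TLR1 or TLR6 to bind lipopeptides and TLR4 binds lipopolysaccharide with the help of CD14. TLR3, TLR7, TLR8, TLR9, and TLR13 sit in endosomes and bind nucleic acids. In the brain, microglia and infiltrating myeloid cells are known to carry most of these receptors, and their ligation drives NF-κB and interferon responses.

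RNA was sequenced from chronic stroke infarcts and from contralateral cortices of wild-type C57BL/6J mice that were 3 months old, 7 weeks after stroke, with 3 libraries per region. Per the study's methods, the mice were male, the stroke was a distal occlusion of the middle cerebral artery combined with hypoxia (the DH model), and infarcts were dissected by eye. The labels name no treatment other than stroke, and they do not say whether a library was made from 1 mouse or from a pool. The comparison asked which genes differed in level between infarct and contralateral cortex. It has no cortex from mice without stroke.

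Between 11943570 and 19933962 reads were counted on genes per library. The summed level of 8 neuronal marker genes was 587 to 1452 CPM (counts scaled to the depth of the library with TMM, edgeR's trimmed mean of M values) in infarcts and 8227 to 8904 CPM in contralateral cortices, and all 8 markers fell. The summed level of 9 pan-myeloid genes was 2220 to 3136 CPM in infarcts and 180.4 to 237 CPM in contralateral cortices, and all 9 rose. In tissue RNA, more cells of a type and more RNA per cell cannot be told apart, and this holds for every value that follows.

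All 10 genes were upregulated in infarcts, where upregulated means more than 2-fold higher with an adjusted p below 0.05 in edgeR's quasi-likelihood test over all genes. Of all genes tested, 25.7% were upregulated and 20.9% were downregulated by the same rule. In all 10 genes, every infarct library was above every contralateral library, which was so for 37.6% of all genes tested. The log2 fold changes ran from 1.13 for Tlr3 to 7.86 for Tlr8. Their median was 4.50, beside 0.03 over all genes tested and 2.43 over the 3999 upregulated genes.

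**Figure D1:**
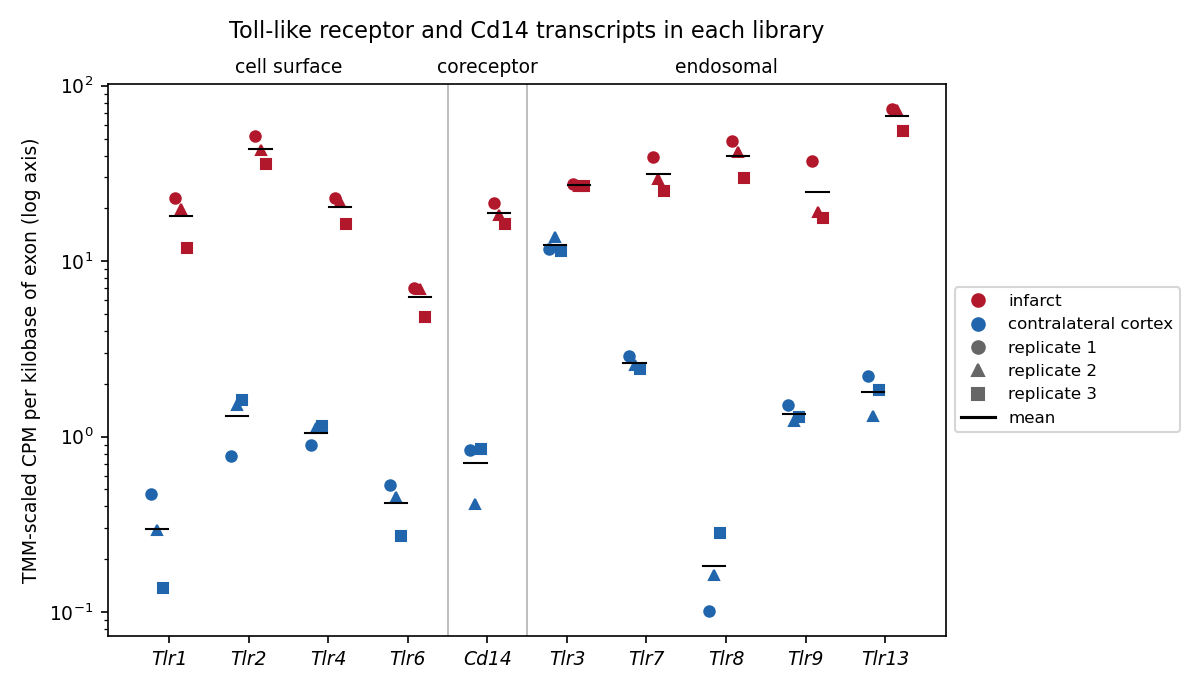
TMM-scaled CPM per kilobase of exon (log axis) of the 10 genes in each of the 6 libraries, with marker shapes for the replicate numbers and black lines for the mean of 3 libraries. In every gene the red infarct points lie above the blue contralateral points, with the narrowest gap in Tlr3 and the widest in Tlr8.

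Among the surface receptors, Tlr2 (ENSMUSG00000027995, chr3:83836272-83841767, GRCm38) encodes the shared partner of TLR1 and TLR6. Its level was 156, 129.8, and 108 CPM in the infarcts, compared with 2.35, 4.56, and 4.89 CPM in the contralateral cortices. The lowest infarct was 22.1 times the highest contralateral cortex. The means were 131 ± 23.8 and 3.93 ± 1.38 CPM (SD, n = 3 each), and the log2 fold change was 5.08 (SE 0.29; adjusted p = 8.40e-07).

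Tlr1 (ENSMUSG00000044827, chr5:64924679-64933563), which encodes the partner for triacylated lipopeptides, had 76.2, 66.7, and 39.8 CPM in infarcts. It had 1.57, 0.98, and 0.46 CPM in contralateral cortices, from counts of 30, 15, and 5 reads. Both regions spread widely, by 1.92 times among infarcts and 3.40 times among contralateral cortices, but they did not overlap. The log2 fold change was 5.83 (SE 0.41; adjusted p = 4.14e-06). This was the largest among the surface receptors and also the one with the largest SE among the 10 genes.

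Tlr6 (ENSMUSG00000051498, chr5:64952031-64960097), which encodes the partner for diacylated lipopeptides, had 26.0, 25.8, and 17.8 CPM in infarcts. Contralateral cortices had 1.98, 1.69, and 1.02 CPM. The change of 3.84 on the log2 scale (SE 0.28; adjusted p = 2.51e-06) was the smallest among the surface receptors. Tlr1 and Tlr6 lie 18467 bases apart on the minus strand of chromosome 5 and are near copies over part of their length. Of the 75-base stretches of the Tlr6 transcripts, 340 of 3677 (9.25%) also occur in Tlr1. Per the study's methods, reads of 75 bases were sequenced in pairs. Pairs with both reads wholly within such stretches have no single place, so the levels of both genes are somewhat uncertain.

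Tlr4 (ENSMUSG00000039005, chr4:66827584-66930284), the lipopolysaccharide receptor gene, measured 127, 120.1, and 90.4 CPM in the infarcts against 4.96, 6.19, and 6.37 CPM on the contralateral side. This was a log2 fold change of 4.27 (SE 0.20; adjusted p = 2.49e-07). Cd14 (ENSMUSG00000051439, chr18:36725067-36726798), whose product hands lipopolysaccharide to TLR4, measured 37.1, 31.7, and 28.3 CPM against 1.46, 0.72, and 1.48 CPM, for a log2 fold change of 4.73 (SE 0.28; adjusted p = 6.75e-07). Neither gene had an infarct near the contralateral range, the lowest infarct being 14.2 times the highest contralateral cortex for Tlr4 and 19.2 times for Cd14.

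Among the endosomal receptors, Tlr8 (ENSMUSG00000040522, chrX:167242696-167264329) changed the most. It was close to undetected in contralateral cortices, with counts of 7, 9, and 11 reads (0.37, 0.59, and 1.02 CPM). In the infarcts it reached 2172, 2039, and 1565 reads (173, 149.7, and 107 CPM). The lowest infarct was 105 times the highest contralateral cortex. This gave a log2 fold change of 7.86 (SE 0.34; adjusted p = 2.18e-07), rank 174 of the 15554 genes tested.

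Tlr7 (ENSMUSG00000044583, chrX:167304929-167330558), whose product like TLR8 is a receptor for single-stranded RNA, lies 40599 bases from Tlr8 on the same strand. Infarcts had 161, 120.4, and 102 CPM of it, and the contralateral side 11.8, 10.5, and 9.87 CPM. The libraries of each region lay close together beside the gap between the regions, the lowest infarct being 8.69 times the highest contralateral cortex. The log2 fold change of Tlr7 was 3.57 (SE 0.20; adjusted p = 5.71e-07).

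Tlr13 (ENSMUSG00000033777, chrX:106143204-106160493), which encodes a receptor for bacterial ribosomal RNA, had 317, 312, and 236 CPM in infarcts. Contralateral cortices had 9.51, 5.66, and 7.94 CPM. Its log2 fold change was 5.22 (SE 0.24; adjusted p = 2.25e-07).

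Tlr9 (ENSMUSG00000045322, chr9:106222598-106226883), the receptor gene for unmethylated CpG DNA, had 129.8 CPM in infarct 1 but 66.6 and 61.1 CPM in infarcts 2 and 3. The contralateral cortices were close together at 5.28, 4.30, and 4.52 CPM. The log2 fold change was 4.18 (SE 0.32; adjusted p = 6.05e-06), and it was 3.78 without infarct 1.

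Tlr3 (ENSMUSG00000031639, chr8:45395665-45411080), whose product binds double-stranded RNA, had the smallest change. The infarcts had 142, 139.7, and 140.1 CPM, and the contralateral cortices 61.0, 71.8, and 59.5 CPM. The infarcts were within 1.02 times of each other, and the lowest was 1.95 times the highest contralateral cortex. On the log2 scale the change was 1.13 (SE 0.14; adjusted p = 5.86e-05). The change was above 0 but not shown to exceed a 2-fold change when tested against that size (glmTreat adjusted p = 0.149). Of the exon bases of Tlr3, 7.32% overlap a gene on the other strand (Gm45542).

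**Figure D2:**
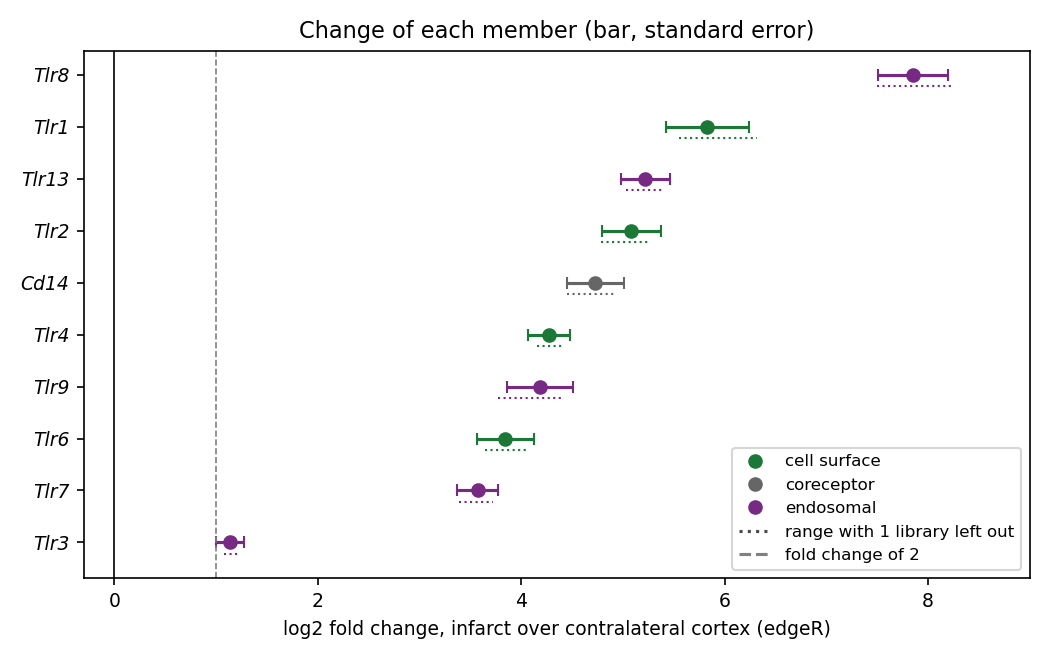
Log2 fold change of each gene, infarct over contralateral cortex, with bars for the SE of the edgeR fit, dotted lines for the range when 1 library at a time was left out, and a dashed line at a fold change of 2. Tlr8 stands at the top at 7.86 and Tlr3 at the bottom at 1.13, and green surface receptors lie among the purple endosomal receptors.

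By class, the 4 surface receptors had log2 fold changes of 3.84 to 5.83 with a median of 4.68. The 5 endosomal receptors had 1.13 to 7.86 with a median of 4.18, and a median of 4.70 without Tlr3. The endosomal class held both the largest and the smallest change of the 10, and the range of the surface class lay inside its range. No test was made between the classes, since genes are not replicates.

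The 4 receptors with the largest changes were Tlr8, Tlr1, Tlr13, and Tlr2, and the sequence just upstream of each is shown for this reason. The sequences are from RefSeq's GRCm38.p6 promoter windows (300 bases, from 250 bases before the annotated start), each limited to the part outside the exons of the gene and written 5′ to 3′ on the gene's strand. Capitals mark the motifs searched on both strands, which were GAGGAA (the core of PU.1 sites), GGAAGT (an ETS form), GGGNNTTCC (an NF-κB form), GAAANNGAA (the core of the interferon-stimulated response element), and TATAAA (the TATA box).
Tlr8, chrX:167264330-167264579, minus strand: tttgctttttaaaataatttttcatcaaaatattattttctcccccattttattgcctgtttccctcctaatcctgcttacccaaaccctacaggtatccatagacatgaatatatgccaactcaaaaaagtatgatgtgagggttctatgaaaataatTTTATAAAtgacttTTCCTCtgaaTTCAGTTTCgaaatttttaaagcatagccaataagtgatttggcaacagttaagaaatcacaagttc
Tlr1, chr5:64933564-64933808, minus strand: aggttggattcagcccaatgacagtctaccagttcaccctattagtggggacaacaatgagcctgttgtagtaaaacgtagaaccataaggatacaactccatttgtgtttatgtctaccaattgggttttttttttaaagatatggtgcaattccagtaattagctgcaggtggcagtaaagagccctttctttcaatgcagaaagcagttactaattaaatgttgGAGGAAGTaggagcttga
Tlr13, chrX:106143025-106143203, plus strand: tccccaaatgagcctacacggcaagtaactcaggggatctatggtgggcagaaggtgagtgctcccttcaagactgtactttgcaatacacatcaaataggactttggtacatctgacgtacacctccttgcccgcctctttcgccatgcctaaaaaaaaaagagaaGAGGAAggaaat
Tlr2, chr3:83841768-83841858, minus strand: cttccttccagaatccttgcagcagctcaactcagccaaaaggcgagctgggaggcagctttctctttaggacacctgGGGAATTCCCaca

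In Tlr8 the capitals are, in order, 2 overlapping TATA matches 91 and 89 bases before the start, the PU.1 core at 77, and the interferon element core at 67. In the Tlr1 window shown they are the PU.1 core 23 bases before the start, overlapping the ETS form at 21. In Tlr13 they are the PU.1 core 83 bases before the RefSeq start. In Tlr2 they are the NF-κB form, matched on both strands 172 and 171 bases before the RefSeq start. The table held 9 windows for 7 of the 10 genes, and none for Tlr4, Tlr7, and Cd14. The PU.1 core was in 4 of the 9 windows and in 28.3% of all 32851 windows, and the ETS form was in 5 of 9 and in 23.8%. The NF-κB form was in 1 of 9 and in 5.82%, the interferon element core in 2 of 9 and in 8.56%, and the TATA box in 2 of 9 and in 13.6%. None of the 5 motifs was in the window of Tlr3 or in the second of the 2 windows of Tlr1. A match is a run of letters and says nothing of binding in these tissues.

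Levels of different genes were compared per kilobase of exon. In infarcts Tlr13 was the highest at 67.0 ± 10.5 CPM per kilobase, followed by Tlr2 at 43.6 ± 7.90, Tlr8 at 39.9 ± 9.36, Tlr7 at 31.3 ± 7.36, Tlr3 at 27.0 ± 0.29, Tlr9 at 24.7 ± 11.0, Tlr4 at 20.3 ± 3.52, Cd14 at 18.7 ± 2.56, Tlr1 at 18.2 ± 5.65, and Tlr6 at 6.23 ± 1.26 (SD, n = 3). In this order, Tlr13 was above Tlr2 and Tlr1 above Tlr6 without overlap of their libraries, and all other neighbors overlapped. In contralateral cortices Tlr3 led at 12.3 ± 1.28 CPM per kilobase, followed by Tlr7 at 2.62 ± 0.23, Tlr13 at 1.79 ± 0.45, Tlr9 at 1.35 ± 0.15, Tlr2 at 1.30 ± 0.46, Tlr4 at 1.05 ± 0.14, Cd14 at 0.70 ± 0.25, Tlr6 at 0.42 ± 0.13, Tlr1 at 0.30 ± 0.17, and Tlr8 at 0.18 ± 0.09. There, Tlr3 was above Tlr7, Tlr7 above Tlr13, and Tlr4 above Cd14 without overlap, and the other neighbors overlapped. Of the 10 genes, Tlr8 thus stood at rank 10 in contralateral cortex and rank 3 in infarct, and Tlr3 at rank 1 and rank 5.

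The summed level of the 9 TLR genes was 278 ± 53.7 CPM per kilobase in infarcts and 21.3 ± 1.01 in contralateral cortices, a ratio of 13.04. In contralateral cortices, Tlr3 made up 55.5 to 61.4% of this sum. In infarcts its share was 8.29 to 12.1%. The surface receptors together went from 12.7 to 15.5% in contralateral cortices to 30.9 to 32.5% in infarcts. All 5 endosomal receptors together went from 84.5 to 87.3% in contralateral cortices to 67.5 to 69.1% in infarcts. Without Tlr3, the endosomal receptors went from 23.5 to 31.8% to 57.1 to 60.1%. Shares of 1 sum depend on each other, so a lower share of 1 gene goes with higher shares of others. The share of Tlr3 was lower in infarcts although its mean level was higher, at 27.0 compared with 12.3 CPM per kilobase. Tlr13 had 5.87 to 10.5% in contralateral cortices and 22.3 to 25.8% in infarcts, and Tlr8 had 0.48 to 1.38% and 13.4 to 14.8%. The share of Tlr7 was 11.4 to 13.6% in contralateral cortices and 10.5 to 11.9% in infarcts, and the shares of Tlr6 and Tlr9 also overlapped between the regions. These shares are descriptions. With 3 libraries against 3, an exact permutation test of a single value cannot go below p = 0.1.

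**Figure D3:**
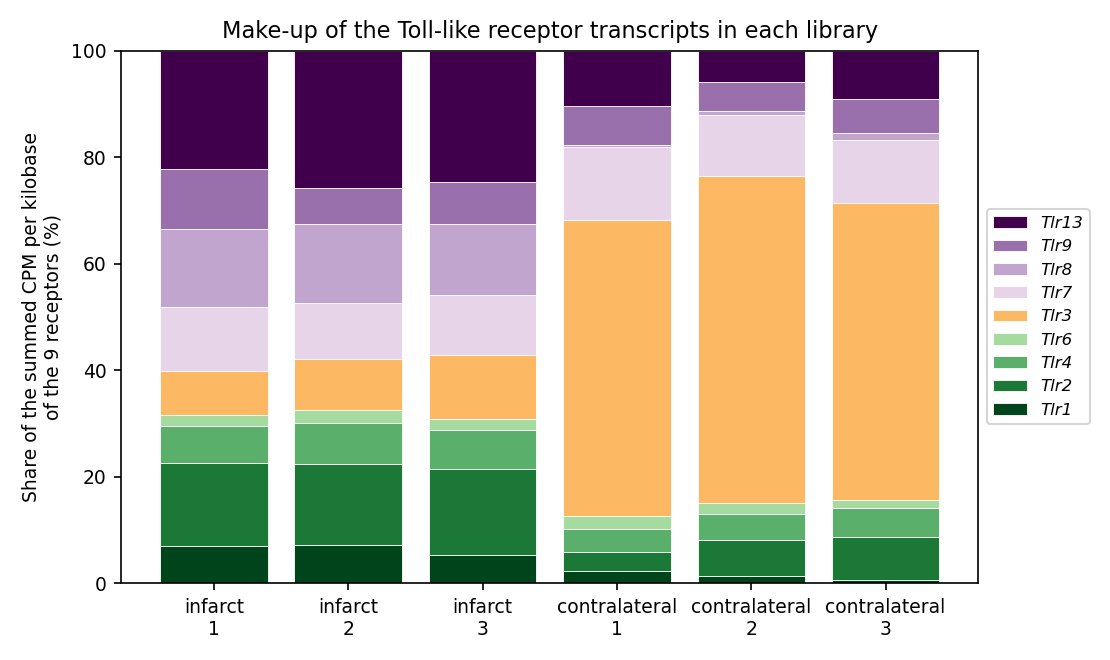
Share (%) of each receptor in the summed CPM per kilobase of the 9 TLR genes, with 1 stacked bar per library (green, surface; orange, Tlr3; purple, other endosomal). The orange block takes 55.5 to 61.4% of the contralateral bars and 8.29 to 12.1% of the infarct bars.

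Ratios between 2 genes of the same library do not depend on how libraries are scaled. For the 2 partners of TLR2, the ratio of Tlr1 to Tlr6 per kilobase was 2.49 to 3.26 in infarcts and 0.51 to 0.88 in contralateral cortices. By these values the more abundant partner transcript was Tlr1 in every infarct and Tlr6 in every contralateral cortex. The contralateral order is uncertain, since it rests on 30, 15, and 5 reads of Tlr1 and 38, 26, and 11 of Tlr6. The 2 genes also share sequence. The ratio of Tlr1 to Tlr2 was 0.33 to 0.46 in infarcts and 0.08 to 0.60 in contralateral cortices, and the regions overlapped. The ratio of Tlr4 to Tlr2 was 0.44 to 0.50 in infarcts and 0.71 to 1.15 in contralateral cortices, without overlap. The ratio of Cd14 to Tlr4 was 0.85 to 1.01 and 0.37 to 0.95, with overlap.

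For the endosomal genes, the ratio of Tlr8 to Tlr7 was 1.19 to 1.42 in infarcts and 0.04 to 0.12 in contralateral cortices. Tlr13 was 1.87 to 2.46 times Tlr7 in infarcts and 0.51 to 0.77 times Tlr7 in contralateral cortices. The ratio of Tlr9 to Tlr7 moved less, from 0.48 to 0.54 in contralateral cortices to 0.65 to 0.95 in infarcts. Tlr3 was 4.07 to 5.37 times Tlr7 in contralateral cortices and 0.69 to 1.08 times Tlr7 in infarcts. None of these 4 ratios overlapped between the regions.

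The 3 infarcts were not alike in these genes. Infarct 1 had the highest CPM in 10 of the 10 genes, and infarct 3 the lowest in 9, the exception being Tlr3, which was lowest in infarct 2. The highest infarct was between 1.02 times (Tlr3) and 2.12 times (Tlr9) the lowest. Marker sums of other cells differed among the same libraries. The B cell list (6 genes, 6 upregulated) summed to 302, 144, and 121 CPM in infarcts 1, 2, and 3 and to 0.33 to 0.65 CPM in contralateral cortices, where Blk was at 0. The T and NK cell list (8 genes, 7 tested and all 7 upregulated) summed to 122, 50.5, and 31.6 CPM in infarcts and 0.39 to 0.73 CPM in contralateral cortices, where Cd3d and Cd8a were at 0. The pan-myeloid list summed to 3136, 2236, and 2220 CPM in the 3 infarcts. The neuronal list ran the other way, at 587, 822, and 1452 CPM. The part of these cells in the spread of the receptor genes was not tested.

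Other marker lists differed between the regions as well. Homeostatic microglial genes (7 genes, 3 upregulated, 4 not called) summed to 660.4 to 723 CPM in infarcts compared with 227 to 248 CPM in contralateral cortices. Genes of monocyte-derived macrophages (7 genes, 6 upregulated) summed to 272 to 466 CPM and 12.8 to 16.2 CPM, and those of conventional dendritic cells (6 genes, 4 upregulated) to 303 to 477 CPM and 25.3 to 26.8 CPM. In infarcts most of the dendritic cell sum was Itgax, which macrophages also express, and the other 5 genes summed to 28.5 to 45.6 CPM compared with 24.2 to 26.6 CPM. The plasmacytoid dendritic cell list (6 genes, 5 tested, 4 upregulated) summed to 824 to 919 CPM and 1046 to 1194 CPM, most of it from Tcf4, which other brain cells also express, and its other 5 genes summed to 21.8 to 56.4 CPM and 0.52 to 1.38 CPM. The highest of these 5 in infarcts was Spib, at 39.3, 13.4, and 12.4 CPM in infarcts 1, 2, and 3, the same order as the B cell sums. Neutrophil genes were low, at 14.4 to 20.0 CPM in infarcts and 0 to 0.46 CPM in contralateral cortices (8 genes, 3 tested, 3 upregulated). Elane was at 0 in all 6 libraries and Ly6g, Mpo, and Retnlg were at 0 in all contralateral cortices. Endothelial genes (5 genes, 2 upregulated) summed to 282 to 392 CPM and 191 to 214 CPM, fibroblast genes (6 genes, 6 upregulated) to 6927 to 8680 CPM and 146 to 189 CPM, and oligodendrocyte genes (6 genes, 3 upregulated) to 4103 to 6691 CPM and 2131 to 2538 CPM. Astrocyte genes (6 genes, 2 upregulated and 1 downregulated) summed to 4928 to 7321 CPM in infarcts, below the 13024 to 14056 CPM of contralateral cortices. In contralateral cortices most of this sum was the glutamate transporter gene Slc1a2, which fell. The other 5 astrocyte genes summed to 2552 to 3399 CPM in infarcts, above their 1062 to 1232 CPM in contralateral cortices. Among them, Gfap (log2 fold change 4.81) and Aqp4 (1.68) were upregulated, and Gja1 (0.59), Slc1a3 (-0.37), and Aldh1l1 (-0.49) were not called. The part of each of these cells in the receptor levels was not tested.

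The receptor genes were also set against the pan-myeloid transcripts of the same library. The summed pan-myeloid level was 3.59 higher in infarcts on the log2 scale. Relative to it, Tlr8 was 4.28 higher on the log2 scale, Tlr1 2.45, Tlr13 1.66, Tlr2 1.53, Cd14 1.21, Tlr4 0.67, and Tlr9 0.52, all without overlap between the regions. Tlr6 (0.34) and Tlr7 (-0.03) overlapped. Tlr3 was at -2.45, with every infarct below every contralateral cortex. The result depended on the denominator. Against the geometric mean of the same 9 genes, 6 of the 10 were higher, 5 of them without overlap, and Tlr9 (-0.04) and Tlr6 (-0.23) changed sign. Tlr7 was then lower without overlap (-0.60). Against Csf1r alone, the receptor of macrophage colony-stimulating factor, 9 of 10 were higher without overlap and Tlr3 was lower at -0.82. Csf1r itself was only 1.96 higher in infarcts on the log2 scale. A denominator takes the same amount from every gene of a library. The share of all genes that were higher relative to each denominator was not computed, so these counts only describe the 10 genes. Tlr3 was lower and Tlr8, Tlr1, Tlr13, Tlr2, and Cd14 were higher, without overlap, under all 3 denominators.

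**Figure D4:**
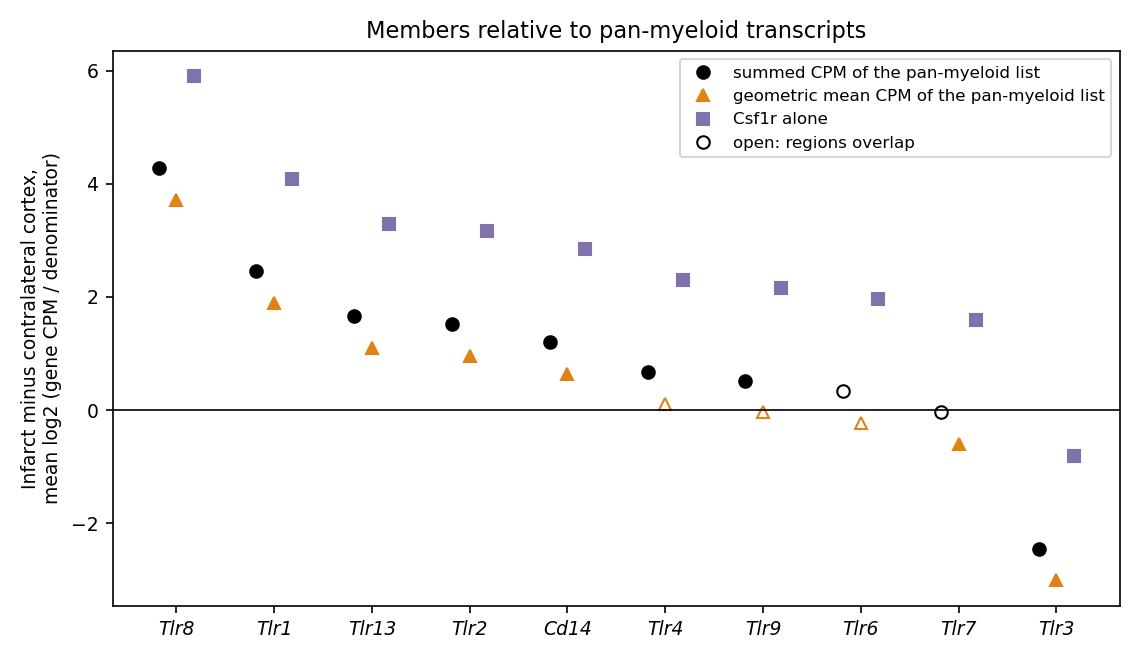
Mean log2 ratio of each gene's CPM to a myeloid denominator, infarct minus contralateral cortex, for 3 denominators (black circles, summed pan-myeloid CPM; orange triangles, geometric mean; purple squares, Csf1r alone), with open symbols where libraries of the 2 regions overlap. Tlr8 is the farthest above 0 and Tlr3 below 0 with all 3 denominators, whereas Tlr9, Tlr6, and Tlr7 cross 0.

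The rest of the pathway was described with 9 lists of textbook genes. Of their 77 genes, 73 were tested, 52 were upregulated, 3 were downregulated, and 18 were not called. This is 71.2% of those tested upregulated, beside 25.7% upregulated and 20.9% downregulated over all genes tested. The median log2 fold change of the 73 was 2.54, beside 0.03 over all genes tested.

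The other 3 mouse TLR genes were also upregulated, with 11 to 322 reads per infarct. Tlr5, the flagellin receptor gene, had 37, 43, and 45 reads in infarcts and 13, 19, and 11 in contralateral cortices (log2 fold change 1.65, SE 0.36; adjusted p = 0.00243). Tlr12, a profilin receptor gene, had 322, 214, and 142 reads and 41, 39, and 27 reads (2.83, SE 0.36; adjusted p = 9.57e-05). Tlr11, also a profilin receptor gene, had 38, 22, and 11 reads in infarcts and 0, 0, and 1 in contralateral cortices, and was upregulated (adjusted p = 5.82e-04). Scaled for depth, the summed Tlr11 ratio was 78.8, with an exact 95% interval of 13.7 to 3158 for counting error only.

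All 5 accessory genes rose. Cd36, a scavenger receptor that works with TLR2 and TLR6, averaged 969 ± 124 CPM in infarcts and 3.83 ± 0.74 CPM on the contralateral side (log2 fold change 7.98), and Lbp, which encodes lipopolysaccharide-binding protein, had 92.2 ± 7.08 and 0.91 ± 0.29 CPM (6.70). The genes of the TLR4-like pair RP105 and MD-1, Cd180 and Ly86, had log2 fold changes of 4.85 and 3.88. Ly96, which encodes MD-2, the lipopolysaccharide-binding subunit of the TLR4 complex, rose least, with 63, 43, and 43 reads in infarcts and 20, 9, and 7 in contralateral cortices (2.24, SE 0.40; adjusted p = 7.57e-04). The ratio of Ly96 to Tlr4 per kilobase was 0.14 to 0.21 in infarcts and 0.52 to 1.15 in contralateral cortices, without overlap.

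Of 9 genes for folding and transport of the receptors or for endolysosomal function, 7 were upregulated and 2 were not called, with a median log2 fold change of 1.25. The largest changes were in Slc15a3, an endolysosomal peptide transporter gene (6.36, SE 0.30), and Unc93b1, whose product carries the endosomal TLRs out of the endoplasmic reticulum (4.59, SE 0.33). Unc93b1 had 2461, 1281, and 1522 reads in the infarcts and 116, 70, and 62 in the contralateral cortices. The smallest were in Tmed7 (0.33; adjusted p = 0.119) and Cnpy3, a TLR chaperone gene (0.96; adjusted p = 0.0278, under the fold threshold), and neither was called. Cnpy3 was called, and the log2 fold change of Cnpy3 was 1.19, 1.08, and 1.21, without infarct 2, infarct 3, and contralateral cortex 2, respectively.

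Of the 6 adaptor genes, 5 rose. Pik3ap1, which encodes the phosphoinositide 3-kinase adaptor BCAP, had a log2 fold change of 5.16, and Ticam2, the gene of the TLR4 adaptor TRAM, had 4.44 from 100, 99, and 86 reads in infarcts and 3, 6, and 5 in contralateral cortices. Of the exon bases of Ticam2, a part is shared with Tmed7 on the same strand, so its count is uncertain. Myd88, the adaptor of all TLRs but TLR3, had 26.5 ± 3.26 and 2.82 ± 0.53 CPM (3.21, SE 0.21; adjusted p = 1.36e-06). Tirap, which bridges MyD88 to TLR2 and TLR4, had 2.76, and Ticam1, the gene of the TLR3 adaptor TRIF, had 2.22. Sarm1, an NAD-cleaving adaptor known from neurons and axon loss, fell, from 488, 310, and 261 reads in contralateral cortices to 41, 69, and 141 in infarcts (-1.95, SE 0.35; adjusted p = 9.60e-04). Its 3 infarct counts followed the order of the neuronal marker sums given above, whose part was not tested.

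The list of 17 kinases, kinase-binding proteins such as Tab3, and ubiquitin enzymes had the lowest median of the 9 lists. Of these, 6 were upregulated, 1 was downregulated, and 10 were not called, with a median log2 fold change of 0.57. The 35.3% upregulated lay near the 25.7% of all genes tested. The highest log2 fold changes were in Ikbke, an activator of interferon regulatory factors (4.13), and Irak4, the first kinase recruited by MyD88 (3.79). The lowest were in Ube2n, the ubiquitin-conjugating enzyme Ubc13, which was the gene that fell (-1.76; adjusted p = 1.37e-05), and Tab3, which was not called (-0.73; adjusted p = 0.00146, under the fold threshold). All 9 transcription factors of the pathway were upregulated, with a median of 2.81. Irf7 (6.47) and Irf8 (4.75), interferon regulatory factors, had the largest changes, and Rela (2.05) and Irf3 (1.49) the smallest. The value of Irf7 (SE 0.33) rests on 6, 2, and 2 reads in contralateral cortices, so its size is uncertain.

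Of the 10 inhibitors, 9 were tested, and 6 were upregulated, 1 was downregulated, and 2 were not called. Irak3, the kinase-dead IRAK-M (4.02), and Tnfaip3, the ubiquitin-editing A20 (2.89), had the highest log2 fold changes. Cyld, a deubiquitinase, fell (-1.11; adjusted p = 1.18e-04), and Tollip was not called (-0.34; adjusted p = 0.057). With libraries scaled by their totals, the log2 fold change of Cyld was -0.91, under the fold threshold. Socs1 was not tested, with 20, 5, and 5 reads in infarcts and 1, 2, and 2 in contralateral cortices.

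Of the 10 response genes, 7 were tested, and 6 were upregulated and 1 was not called. In 3 of them no read was counted in any contralateral cortex, so only a lower bound of the change can be given, with 3 reads per library as the floor. Cxcl10, an interferon-induced chemokine gene, had 202, 149, and 211 reads in infarcts and 0 in all contralateral cortices, which is at least 65.9-fold higher. Il12b had 30, 21, and 19 reads against 0, which is at least 8.31-fold higher. The smallest changes were in Nos2, the inducible nitric oxide synthase gene (2.68; adjusted p = 0.00657), and Ptgs2, the cyclooxygenase-2 gene (0.36; adjusted p = 0.0866), which was not called. The median fitted log2 fold change of the 7 was 6.16, and 3.06 with the 3 genes at 0 in all contralateral cortices set to their lower bounds. The other 3 genes did not pass the filter. Il6 had 3, 0, and 2 reads in infarcts and 0, 1, and 0 in contralateral cortices, Ifnb1 had none in any library, and Il12a had 0, 2, and 1 reads in infarcts and 13, 10, and 6 in contralateral cortices.

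Of the 8 genes for host molecules described as TLR ligands, 5 were upregulated and 3 were not called. Saa3, an acute-phase serum amyloid A gene, had 54, 36, and 36 reads in infarcts and 0 in contralateral cortices, which is at least 14.9-fold higher. Bgn, which encodes the matrix proteoglycan biglycan, averaged 1168 ± 238 CPM in infarcts and 40.1 ± 7.33 CPM on the contralateral side (4.87, SE 0.24). The smallest changes were in the chaperone gene Hspd1 (0.25; adjusted p = 0.148) and in Hmgb1, the nuclear alarmin gene (0.08; adjusted p = 0.604), and neither was called. The median fitted log2 fold change of the 8 was 4.20, and 3.80 with Saa3 at its lower bound.

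**Figure D5:**
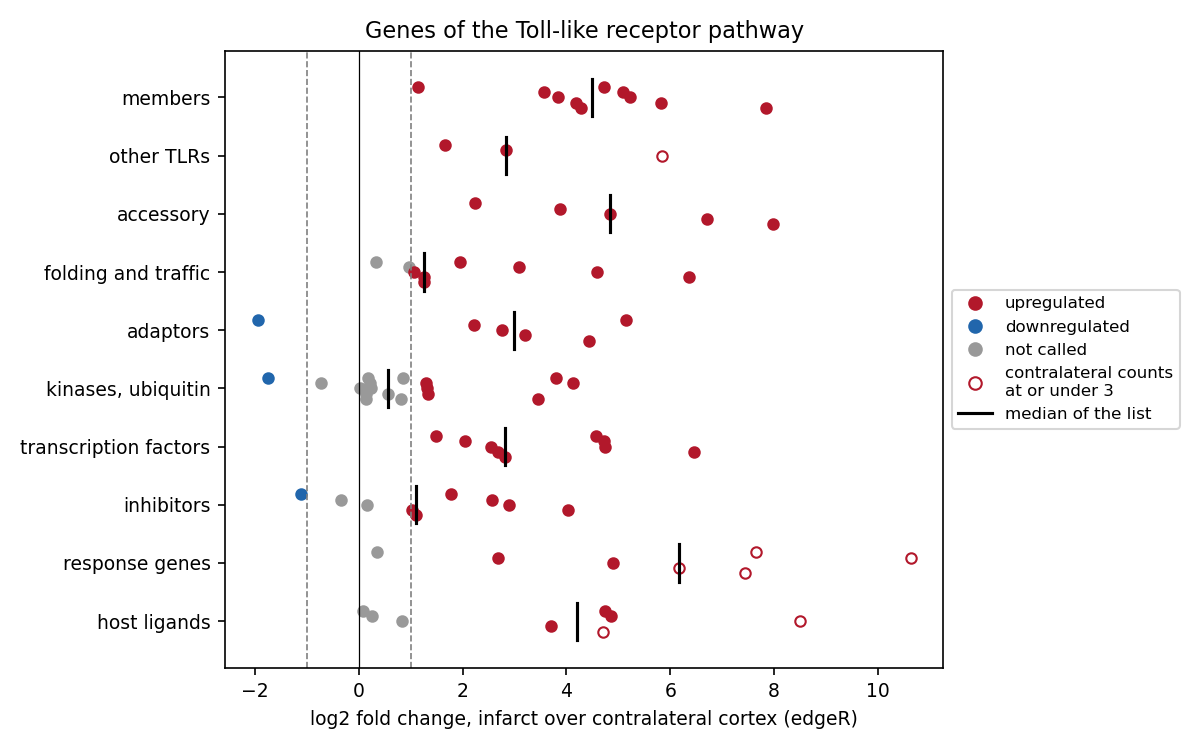
Log2 fold change, infarct over contralateral cortex, of the 10 receptor genes (top row, labelled members) and of the tested genes of 9 pathway lists, with 1 point per gene, black bars for the median of a list, dashed lines at a fold change of 2 in either direction, and open points for fitted values of genes with at most 3 reads in each contralateral library. Red points (upregulated) fill the receptor, accessory, and transcription factor rows, and gray points (not called) are most frequent in the row of kinases and ubiquitin enzymes.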

How the data were processed

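Poly(A) RNA of 6 tissue samples was made into stranded libraries. Per the labels and the study's methods, the authors trimmed reads with Trimmomatic 0.32 (bcl2fastq 2.19 for base calls), aligned them to GRCm38 with STAR 2.5.2b, and counted them per gene with htseq-count, whose version, strand setting, and annotation are not given in the sources used here. The deposited values are raw counts of reads per Ensembl gene. The authors tested with DESeq2. Between 65.7 and 73.4% of each table's entries were on genes, and the 5 summary entries (reads not unique, ambiguous, or on no gene) were left out.

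Samples were grouped by the region in their labels. Genes were tested with edgeR 4.0.16 (R 4.3.3; filterByExpr, TMM, robust quasi-likelihood fit, no covariates) with Benjamini-Hochberg adjustment over 15554 genes. The step was tested on simulated counts with 200 changed genes, far fewer than were called here. That test does not cover scaling between tissues that differ in so many genes. Nothing in the labels says that the 3 libraries of a region come from separate mice, so p-values measure the spread between these libraries, which may be technical. CPM per kilobase used union exon lengths of GENCODE M21, whose symbols matched 15499 of the tested genes. Shared sequence was searched as stretches of 75 bases. Promoters came from RefSeq (GRCm38.p6). Alternatives were DESeq2 1.42.0, limma 3.58.1 voom, glmTreat, other scalings and filters, a replicate block, leaving out each library, another length, and other myeloid denominators.

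The genes, lists, and tests were chosen with earlier results of these data known. Named were every receptor gene, all genes of lists of at most 6, and, of longer lists, the 2 highest and 2 lowest log2 fold changes plus untested genes.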

Additional observations from a re-analysis of the deposited data

How the results depend on the processing

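All 10 receptor genes kept their direction in every alternative, and their calls in each one that tested them, except Tlr3, which was not called by glmTreat (adjusted p = 0.149). Tlr1 and Tlr8 were not tested with at least 10 counts in every library. Across alternatives, the log2 fold change of Tlr9 ran from 3.78 to 4.39 and that of Tlr8 from 7.50 to 8.23. Scaling by library totals shifted the median of all genes by 0.20 on the log2 scale. Deviations of same-numbered infarct and contralateral libraries from their region's mean had r = -0.19, 0.10, and 0.001. With 3 libraries per region, and with 2 unlike tissues, these values cannot show whether such libraries came from the same mice. The labels do not say so, and the main fit took no pairs. With the replicate block, 3945 genes were upregulated against 3999 without it, and 3222 downregulated against 3256; the log2 fold change of Tlr3 was 1.14. Some list counts moved. Folding, transport, and endolysosomal genes had 4 upregulated by glmTreat (7 before), and inhibitors had 0 downregulated under library totals and glmTreat (1 before). With at least 10 counts in every library, response genes had 0 upregulated (6 before) and ligands 2 (5 before), since genes with few contralateral reads were not tested. Response genes had 1 downregulated, Il12a, with DESeq2 and with no filter on low counts (0 before). Cnpy3, Traf6, Ikbkb, and Vcan gained a call, and Ap3b1, Tnip1, Otulin, Cyld, Hsp90b1, and Slc15a4 lost theirs, in some alternatives. Without infarct 1, Ap3b1 (0.90), Tnip1 (0.97), and Otulin (0.78) were under the fold threshold, as was Tnip1 without contralateral cortex 2 (0.80), and Ikbkb was called without contralateral cortex 1 (1.01). With the longest transcript as length, the CPM per kilobase of Tlr4 in infarcts was 27.6 (20.3 with all exons) and the CPM per kilobase of Tlr3 in infarcts was 31.9 (27.0). Counts of 5 to 30 reads limit the contralateral level of Tlr1 and Tlr8.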
